A study of Mus musculus with 108 samples.

Results

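The 39 Hox genes of the mouse were followed cell by cell in cultured male germline cells. They were chosen by name from the 26218 gene rows of the table, as every symbol made of Hox, a cluster letter from a to d and a paralogue number. All 39 were found, with 11 genes in cluster a, 10 in cluster b, 9 in cluster c and 9 in cluster d. The cells were germline stem cells (GSCs), which are spermatogonial stem cells propagated in culture, and GSC-like cells (GSCLCs), their counterparts obtained from pluripotent stem cells. Each sample was 1 cell of 1 of 4 culture lines, with 30 cells of GSC1, 24 of GSC2, 30 of GSCLC1 and 24 of GSCLC4. All lines had the background strain 129/SvJcl x C57BL/6 and carried the AcrAct_EGFP reporter. All were grown in the same StemPro-34 medium with GDNF, bFGF, LIF and EGF. Per the labels, GSC2 came from testes of postnatal day 7 (P7) that were independent of the others. GSCLC4 came from reconstituted testes held at 34 °C for 3 weeks. The derivation of GSC1 and GSCLC1 was not detailed further. Expression was read by SC3-seq, which sequences the 3′ ends of polyadenylated RNA from single cells, and is given in RPM, the reads of a gene scaled to a fixed total of reads per cell.

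Hox genes encode homeodomain transcription factors that give cells along the head-to-tail axis of the embryo their positional identity. In mammals they lie in clusters on separate chromosomes. Genes of like position in different clusters are paralogues and share a number, low numbers being used towards the head and high numbers towards the tail and in the limb and urogenital tract. Their proteins bind DNA together with cofactors of the TALE class such as Pbx and Meis. Polycomb complexes keep the clusters silent where they are not in use, and trithorax complexes keep them active. Primordial germ cells, from which spermatogonial stem cells descend, are known to pass through an early mesoderm-like state in which a Hox programme is switched on and then repressed.

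In the RefSeq annotation of GRCm38.p6, to which all 39 genes were matched by Entrez identifier, cluster a lies on chromosome 6. Cluster b spans 173.9 kb of chromosome 11 (96194316 to 96368254). Cluster c spans 115.7 kb of chromosome 15 (102921131 to 103036856). Cluster d spans 96.9 kb of chromosome 2 (74668225 to 74765142). By GENCODE M21, 12 of the 39 genes are overlapped by a gene on the other strand, among them Hoxa3, Hoxb2, Hoxb3, Hoxb5 and Hoxb6. The sources used here do not give whether reads were counted by strand, so for these genes reads of the partner cannot be told apart.

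RNA of germ cells was found in every cell. Dazl, an RNA-binding protein of germ cells, lay between 517 and 6377 RPM over all cells. Ddx4, a germ cell RNA helicase, lay between 63.6 and 2319 RPM. One GSC1 cell, called the low-detection cell below, stood apart. It had 5748 detected genes, the fewest of all cells, and a summed level of 37938.7 RPM over 14 fibroblast and feeder cell markers, while the next highest GSC1 cell had 2817 RPM. Its 12 germ cell markers summed to 1319 RPM, so its markers go against the label germ cell. Values that rest on it are given with and without it. Estimated depth ran from 2.00 to 6.04 M reads per cell, with line medians of 3.71 and 4.30 M for GSC1 and GSC2 against 3.19 and 3.26 M for GSCLC1 and GSCLC4.

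A Hox gene was called on in a cell at 5 RPM or more, which was 10 to 30 reads depending on the cell, and on in a line where at least 10% of the cells reached that level. In each of the 4 lines that meant at least 3 cells. By this rule 10 of the 39 Hox genes were on in GSC1 and 11 in GSC2, while 13 were on in GSCLC1 and 19 in GSCLC4. The share of all 26218 gene rows that were on by the same rule was 42.1% in GSC1, 40.9% for GSC2, 42.3% for GSCLC1 and 44.1% for GSCLC4. The Hox counts of both GSC lines and of GSCLC1 were thus lower, as shares of 39, than these, and that of GSCLC4 was near it. Without the low-detection cell the count in GSC1 was 8, because Hoxc8 and Hoxc13 had been on in exactly 3 of 30 cells there and that cell was 1 of them. Hoxb5 and Hoxb6 in GSCLC1 were also on in exactly 3 of 30 cells. GSCLC4 had more genes at this limit, among them Hoxb1, Hoxb2, Hoxb3, Hoxb5 and Hoxc11, each on in exactly 3 of 24 cells. Hoxc9 was on in exactly 3 of 24 cells of GSC2. The order of the lines depended on these thresholds. Where 20% of the cells had to be on, the counts were 8 and 9 for GSC1 and GSC2 against 8 and 9 for GSCLC1 and GSCLC4. With 20 RPM needed in a cell they were 9 and 10 against 10 and 11.

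Which clusters were on differed from line to line. Cluster b was the one in use throughout, with 8 of its 10 genes on in GSC1, GSCLC1 and GSCLC4 and 9 in GSC2. Cluster a had no gene on in either GSC line, 3 of 11 in GSCLC1 and 5 of 11 in GSCLC4. Cluster c had 2 of 9 genes on in GSC1, GSC2 and GSCLC1 and 5 of 9 in GSCLC4. Without the low-detection cell no Hoxc gene was on in GSC1. Cluster d had none of 9 on in 3 lines and 1, Hoxd8, in GSCLC4.

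**Figure D1:**
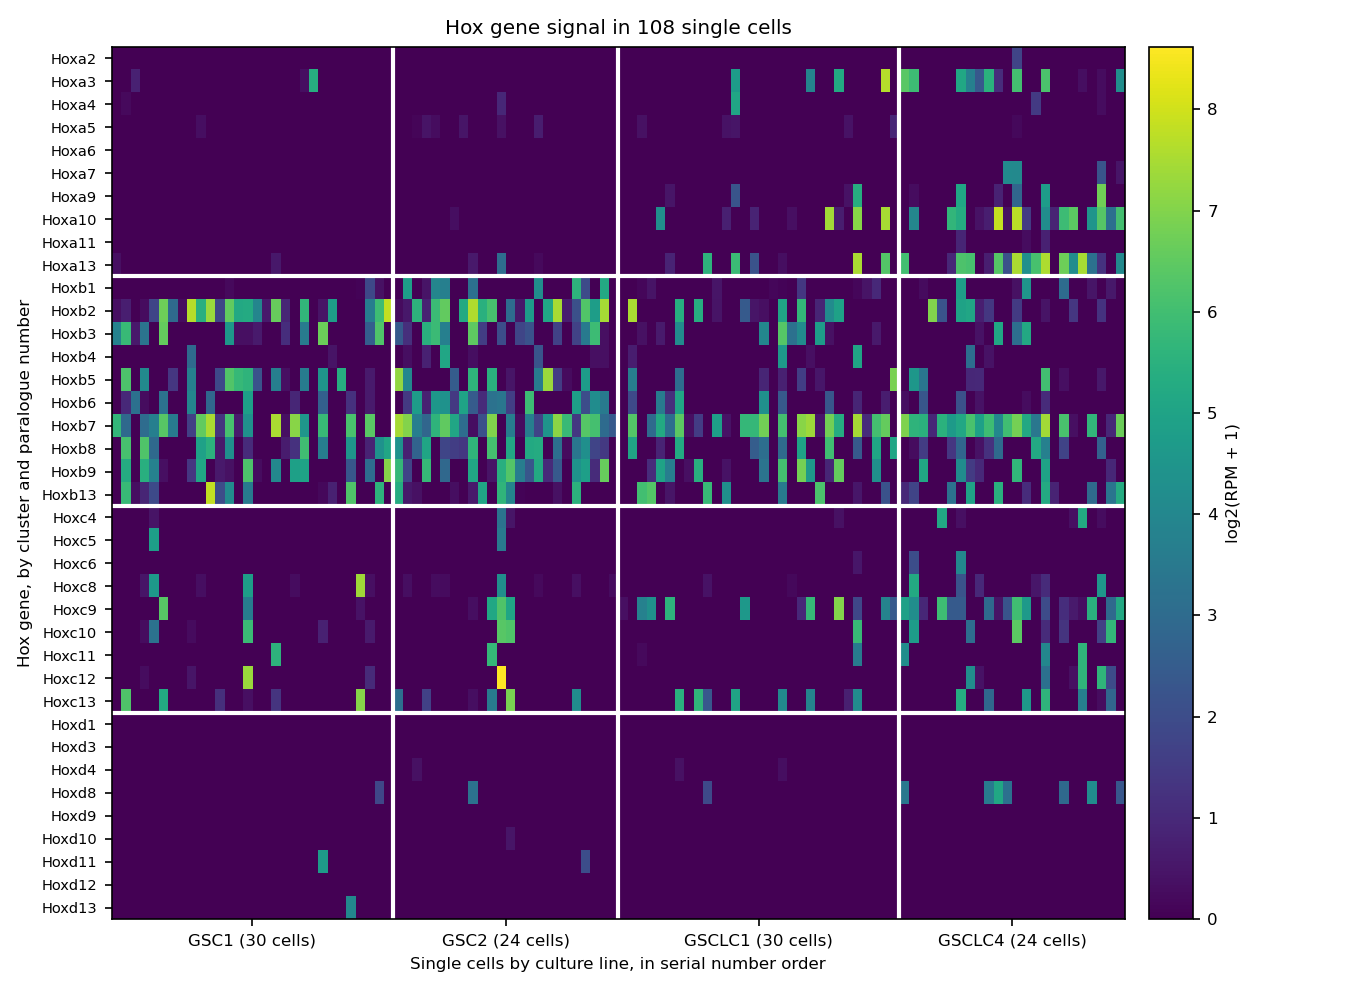
Each row is a Hox gene, ordered by cluster and paralogue number, and each column is 1 cell, ordered by culture line and serial number; colour is log2(RPM + 1). Cluster b is marked in all 4 lines, cluster a almost only in the GSCLC columns, most densely in GSCLC4, and cluster d is nearly blank apart from Hoxd8 in GSCLC4.

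By single genes, 8 were on in all 4 lines: Hoxb2, Hoxb3, Hoxb5, Hoxb7, Hoxb8, Hoxb9, Hoxb13 and Hoxc13. Hoxa3, Hoxa10 and Hoxa13 were on in both GSCLC lines and in no GSC line. Hoxa9, Hoxc10, Hoxc11, Hoxc12 and Hoxd8 were on in GSCLC4 alone, and Hoxc8 in GSC1 alone. Without the low-detection cell, Hoxc8 was on in no line and Hoxc13 in every line but GSC1. Hoxb1 was on in GSC2 and GSCLC4, Hoxb6 in every line but GSCLC4, and Hoxc9 in every line but GSC1. No gene was on in both GSC lines and in no GSCLC line. The other 18 were on in no line, and 5 of them, Hoxa6, Hoxd1, Hoxd3, Hoxd9 and Hoxd12, were listed at 0 RPM in every cell.

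Read by paralogue number, the groups on in every line were 2, 3, 5, 7, 8, 9 and 13, each through its cluster b gene. Group 4 was on in no line, although it has a gene in all 4 clusters. Groups 10, 11 and 12 have no gene in cluster b. Group 10 was on in GSCLC1 through Hoxa10 and in GSCLC4 through Hoxa10 and Hoxc10, and groups 11 and 12 were on in GSCLC4 alone, through Hoxc11 and Hoxc12. Group 13 was on through Hoxb13 and Hoxc13 in both GSC lines and, with Hoxa13 added, through 3 of its 4 genes in both GSCLC lines. Without the low-detection cell, group 13 was on in GSC1 through Hoxb13 alone.

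**Figure D2:**
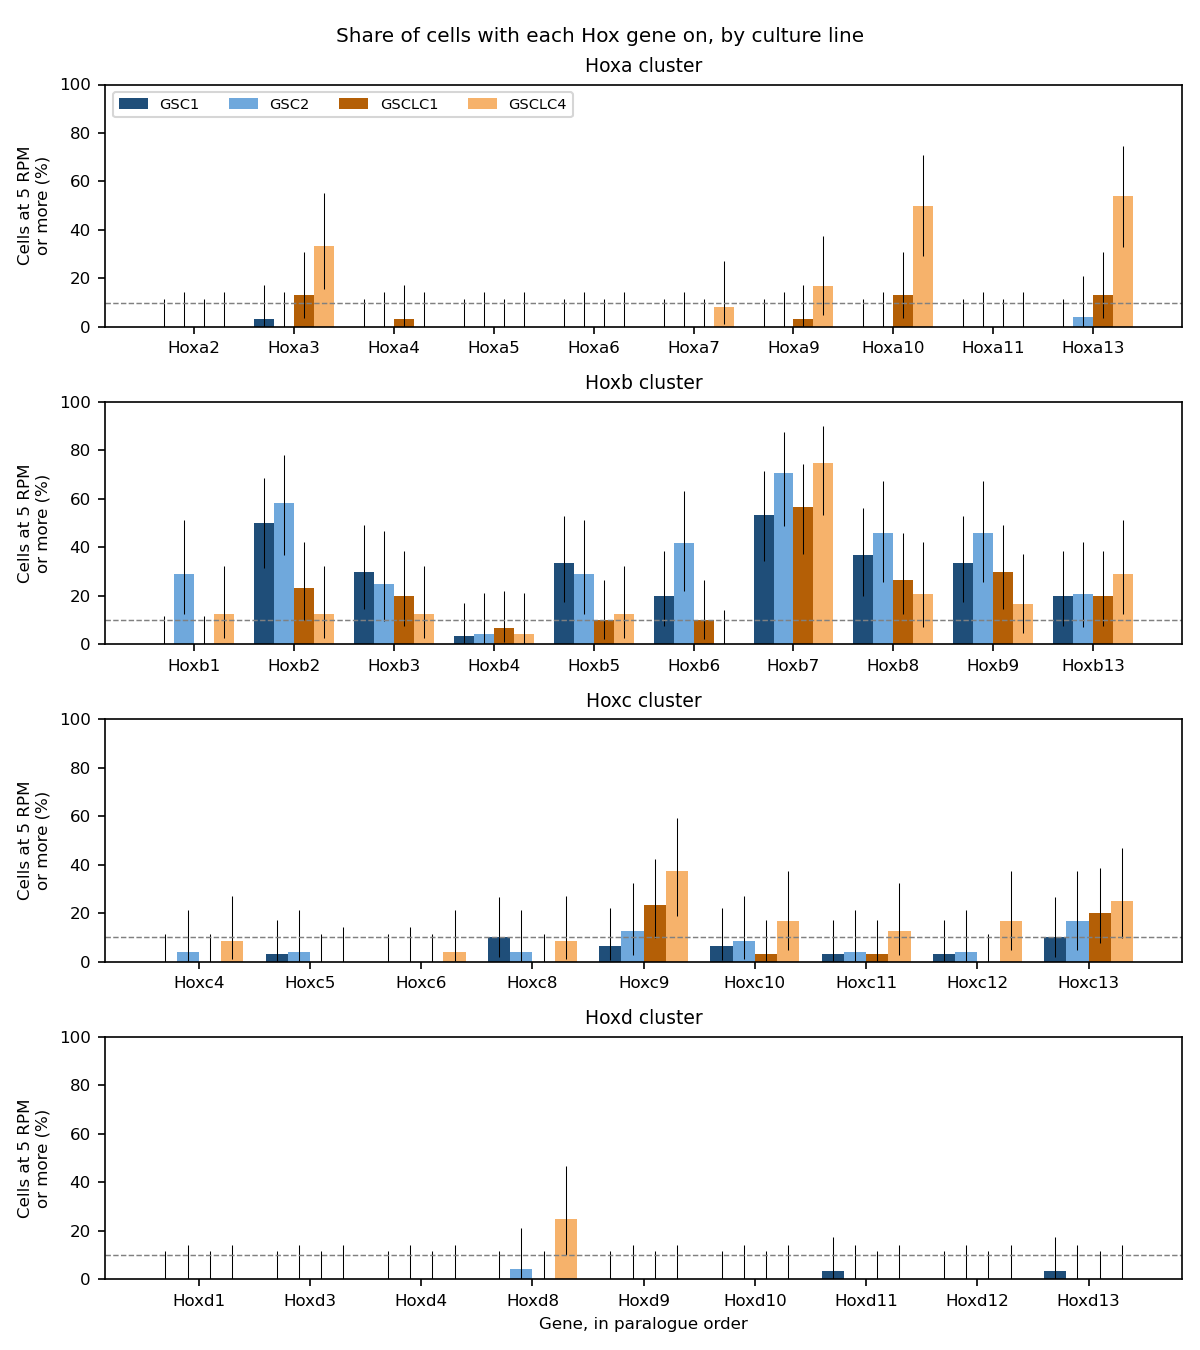
Bars give the share of cells of each line (in %) with a gene at 5 RPM or more, by cluster and in paralogue order, with exact 95% binomial intervals that cover counting error only; the dashed line marks 10%. Hoxa10 reached 50.0% and Hoxa13 54.2% of GSCLC4 cells and 13.3% of GSCLC1 cells each, while Hoxb7 was on in 53.3% to 75% of the cells of every line.

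Cluster a was on in more cells of the GSCLC lines than of the GSC lines. At least 1 Hoxa gene was on in 1 of 30 cells of GSC1 (3.33%, exact Clopper-Pearson interval 0.0844% to 17.2%) and in 1 of 24 cells of GSC2 (4.17%, 0.105% to 21.1%). In GSCLC1 it was 8 of 30 cells (26.7%, 12.3% to 45.9%), and in GSCLC4 19 of 24 (79.2%, 57.8% to 92.9%). The summed level of the 11 Hoxa genes averaged 1.41 and 0.471 RPM for GSC1 and GSC2, against 41.1 RPM for GSCLC1 and 112.6 RPM for GSCLC4. Cells of a line share their source, so these intervals do not speak to other cultures.

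Of the genes of cluster a that were on in GSCLC lines, Hoxa9, Hoxa10 and Hoxa13 lie at its tail end. They are side by side, apart from Hoxa11 between the last of them, and pattern the limb and the reproductive tract. Because they are neighbours and were all on in GSCLC4, Hoxa10 and Hoxa13 also in GSCLC1, the 250 bases before their start sites are shown, taken from RefSeq (GRCm38.p6, chromosome 6, minus strand), together with those of Hoxb8 (chromosome 11, plus strand), a gene that was on in all 4 lines. Each CG dinucleotide, where cytosine can be methylated, is in capitals. The windows lie at chr6:52227371-52227620 for Hoxa9, at chr6:52234940-52235189 and chr6:52240855-52241104 for the downstream and upstream start sites of Hoxa10, at chr6:52260881-52261130 for Hoxa13 and at chr11:96281655-96281904 for Hoxb8.
Hoxa9: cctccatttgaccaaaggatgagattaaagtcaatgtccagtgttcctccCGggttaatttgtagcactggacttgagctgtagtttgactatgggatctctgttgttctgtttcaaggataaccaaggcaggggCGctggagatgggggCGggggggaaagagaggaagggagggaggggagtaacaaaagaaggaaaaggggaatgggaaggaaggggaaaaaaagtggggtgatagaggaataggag
Hoxa10, downstream start site: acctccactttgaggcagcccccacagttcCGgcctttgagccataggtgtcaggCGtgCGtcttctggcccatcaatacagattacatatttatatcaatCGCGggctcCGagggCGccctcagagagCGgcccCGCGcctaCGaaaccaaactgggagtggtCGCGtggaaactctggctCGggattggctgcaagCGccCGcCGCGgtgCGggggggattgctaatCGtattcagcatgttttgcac
Hoxa10, upstream start site: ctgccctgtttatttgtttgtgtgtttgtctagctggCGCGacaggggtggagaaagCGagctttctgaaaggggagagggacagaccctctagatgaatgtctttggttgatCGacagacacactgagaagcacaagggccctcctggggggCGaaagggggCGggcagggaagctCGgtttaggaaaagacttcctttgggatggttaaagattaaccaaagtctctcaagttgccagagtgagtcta
Hoxa13: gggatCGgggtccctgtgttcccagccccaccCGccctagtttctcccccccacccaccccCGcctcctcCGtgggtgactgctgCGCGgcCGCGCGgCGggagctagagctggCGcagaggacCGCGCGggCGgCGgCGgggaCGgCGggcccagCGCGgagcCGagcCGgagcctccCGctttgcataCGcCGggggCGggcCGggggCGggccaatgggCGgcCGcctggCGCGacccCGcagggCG
Hoxb8: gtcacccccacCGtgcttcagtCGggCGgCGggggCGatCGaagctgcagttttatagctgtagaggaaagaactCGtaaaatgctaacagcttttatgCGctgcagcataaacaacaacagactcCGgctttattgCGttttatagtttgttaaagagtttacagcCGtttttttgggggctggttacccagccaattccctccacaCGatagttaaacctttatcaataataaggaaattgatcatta

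The windows differ widely in CG content. Hoxa13 holds 35 CG in its 250 bases, the most among the 24 windows of the 22 Hox genes with an entry, and Hoxa9 holds 3. The 2 windows of Hoxa10 hold 20 and 7, and that of Hoxb8 holds 12. The median was 12.5 over the Hox windows and 6 over the 32851 windows of all genes. Of motifs searched on both strands, TGACAG, the core bound by Meis, stood in none of these 5 windows and in 15.9% of all windows. TGATNNAT, bound by Pbx with Hox, stood in that of Hoxb8 and in 7.68% of all windows. TTTATG, bound by Cdx, also stood in that of Hoxb8 and in 10.8% of all windows. These are matches of letters, and no methylation or binding was measured.

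Hoxa13, the tail-most gene of the cluster and a regulator of hindgut and genital development, was on in more GSCLC4 cells than any other Hoxa gene. In GSCLC1 Hoxa13 was level with Hoxa3 and Hoxa10. Its line means were 0.0249 RPM (GSC1), 0.339 RPM (GSC2), 12.4 RPM (GSCLC1) and 44.6 RPM (GSCLC4). In this order 0 of 30, 1 of 24, 4 of 30 and 13 of 24 cells had it on. In GSCLC4 the cells ran from 0 through a median of 12.1 to 185.9 RPM, and in GSCLC1 from 0 through a median of 0 to 184.9 RPM. The lone GSC2 cell above the threshold had 7.46 RPM. The line means of the types did not overlap, while most GSCLC1 cells were as low as GSC cells.

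Hoxa10, which patterns the uterus and vas deferens, showed the same order of lines. Its line means were 0 RPM (GSC1), 0.0102 RPM (GSC2), 16.8 RPM (GSCLC1) and 36.9 RPM (GSCLC4). No GSC cell had it on, and 0 of 30 and 0 of 24 cells allow shares of up to 10% and 12.5% by a limit of 3 cells, or 11.6% and 14.2% by the exact interval. In GSCLC1 it was on in 4 of 30 cells, with values up to 180.6 RPM, and in 12 of 24 cells of GSCLC4, with values up to 233.7 RPM. Among the cells that were on, the median was 151.6 RPM in GSCLC1 and 54.2 RPM in GSCLC4, so the higher line mean of GSCLC4 went with more cells on, not with more RPM in each.

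Hoxa3, a head-end gene needed for the thymus and parathyroid, averaged 1.37 RPM in GSC1 and 0 in GSC2, but 9.15 RPM in GSCLC1 and 16.4 RPM in GSCLC4. The GSC1 mean came from 1 cell of 40.2 RPM, which made up 97.6% of the line's sum. In GSCLC1 4 of 30 cells were on and 1 of them, at 198.5 RPM, made up 72.4% of the sum, whereas in GSCLC4 8 of 24 cells were on, between 12.5 and 84.3 RPM. Hoxa9 averaged 0 RPM in both GSC lines, 1.5 RPM in GSCLC1 and 7.20 RPM in GSCLC4, where it was on in 4 of 24 cells. Hoxa7 was on in 2 cells of GSCLC4 and Hoxa4 in 1 cell of GSCLC1. Hoxa2, Hoxa5, Hoxa6 and Hoxa11 stayed under 5 RPM in every cell.

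Hoxa genes were on in the same cells only in part. In GSCLC4, 8 of 24 cells had both Hoxa10 and Hoxa13 on, 17 had at least 1 of them and 7 had neither. In GSCLC1 the counts were 2, 6 and 24 of 30. All 4 GSCLC4 cells and the 1 GSCLC1 cell with Hoxa9 on also had Hoxa10 on, the next gene in the cluster. Up to 5 of the 11 Hoxa genes were on in a GSCLC4 cell and up to 3 in a GSCLC1 cell, and never more than 1 in a GSC cell. The highest Hoxa cell of GSCLC4, with a summed level of 479.7 RPM, had Hoxa3, Hoxa7, Hoxa9, Hoxa10 and Hoxa13 on. That of GSCLC1, with 457.3 RPM, had Hoxa3, Hoxa10 and Hoxa13 on and alone made up 37.1% of the line's Hoxa sum.

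**Figure D3:**
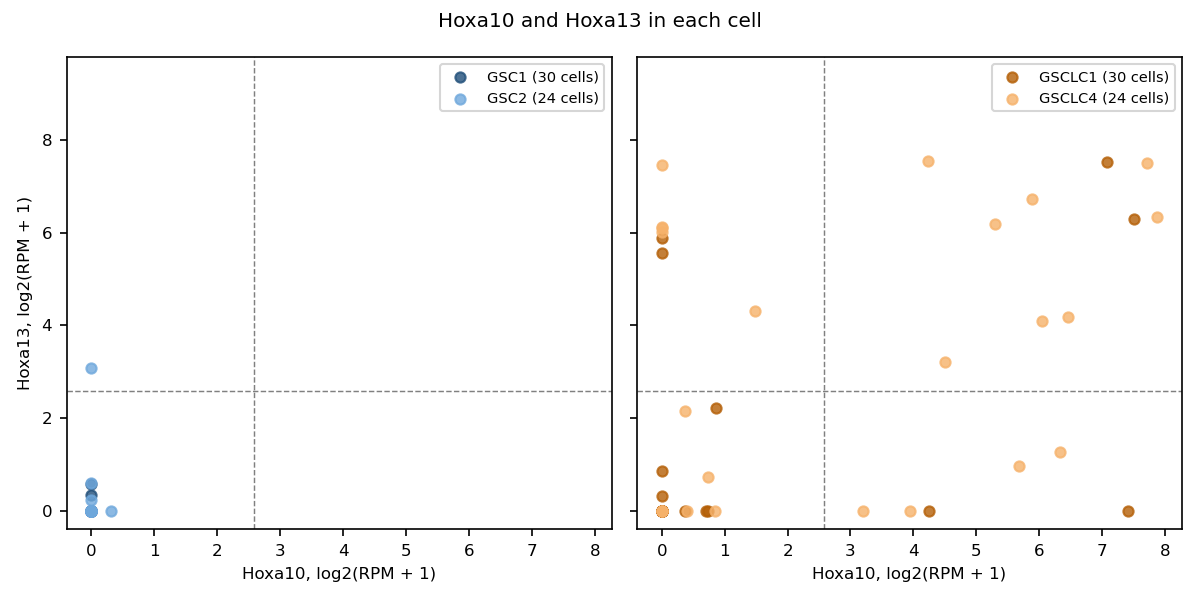
Each point is 1 cell, with Hoxa10 on the horizontal and Hoxa13 on the vertical axis, both as log2(RPM + 1); dashed lines mark 5 RPM, the left panel shows the GSC lines and the right panel the GSCLC lines. GSC cells lie at or near the origin, apart from 1 GSC2 cell with Hoxa13 at 7.46 RPM, while 17 of 24 GSCLC4 cells and 6 of 30 GSCLC1 cells lie past at least 1 dashed line.

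By line mean, transcripts beside the tail end of cluster a had the same order of types. Evx1, a homeobox gene just beyond Hoxa13, was at 0 RPM in every GSC cell and averaged 3.69 RPM in GSCLC1 and 6.99 RPM in GSCLC4. In each GSCLC line 3 cells had it on, and all of them also had Hoxa13 on. Hoxa11as, the RNA antisense to Hoxa11 (RefSeq symbol Hoxa11os), was also at 0 RPM in every GSC cell, and averaged 2.99 RPM in GSCLC1 and 8.91 RPM in GSCLC4. In GSCLC4 9 of 24 cells had it on, although Hoxa11 itself reached no more than 0.841 RPM in any of them. Evx2, the counterpart beside cluster d, was at 0 RPM in all cells.

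The cells that used these genes carried germ cell RNA. The 17 GSCLC4 cells with Hoxa10 or Hoxa13 on had at least 1553 RPM of Dazl and 391 RPM of Ddx4, and the 6 such GSCLC1 cells at least 1893 and 699 RPM. Markers of Sertoli cells, the somatic cells that nurse germ cells in the testis, were highest in GSCLC4 as cluster a was, while GSC1 and GSCLC1 were alike. Summed over the 11 listed markers they averaged 35.4 RPM in GSC1 (0 to 232.4 over cells), 11.4 RPM in GSC2 (0 to 58.8), 34.5 RPM in GSCLC1 (0 to 151.7) and 103.8 RPM in GSCLC4 (0.486 to 270.7). Of these 11, 3 were on in GSC1 and 1 in GSC2, against 4 in GSCLC1 and 6 in GSCLC4. The 6 on in GSCLC4 were Sox9, Wt1, Clu, Rhox5, Inha and Aard. Amh, Dhh, Cldn11 and Fshr averaged under 0.5 RPM in every line, and Amh was at 0 in all 17 GSCLC4 cells and all 6 GSCLC1 cells with Hoxa10 or Hoxa13 on. Wt1 was on in 7 and Sox9 in 5 of the 17 such cells of GSCLC4, and both in 0 of the 6 of GSCLC1. Over all cells Wt1 was on in 12 of 24 of GSCLC4 and 5 of 30 of GSCLC1. It was thus also on in cells with neither Hoxa10 nor Hoxa13 on. The part of these markers in the Hoxa result was not tested.

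Cluster b was on in most cells of every line. At least 1 Hoxb gene was on in 24 of 30 cells of GSC1, 23 of 24 of GSC2, 24 of 30 of GSCLC1 and 21 of 24 of GSCLC4. The median number of Hoxb genes on in a cell was 3, 4, 2 and 2 in that order, and the highest was 6, 7, 7 and 5. The summed level of the 10 genes averaged 145.6 and 178.1 RPM for GSC1 and GSC2, against 103.5 and 81.0 RPM for GSCLC1 and GSCLC4, so that the order of the types was the opposite of that in cluster a.

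**Figure D4:**
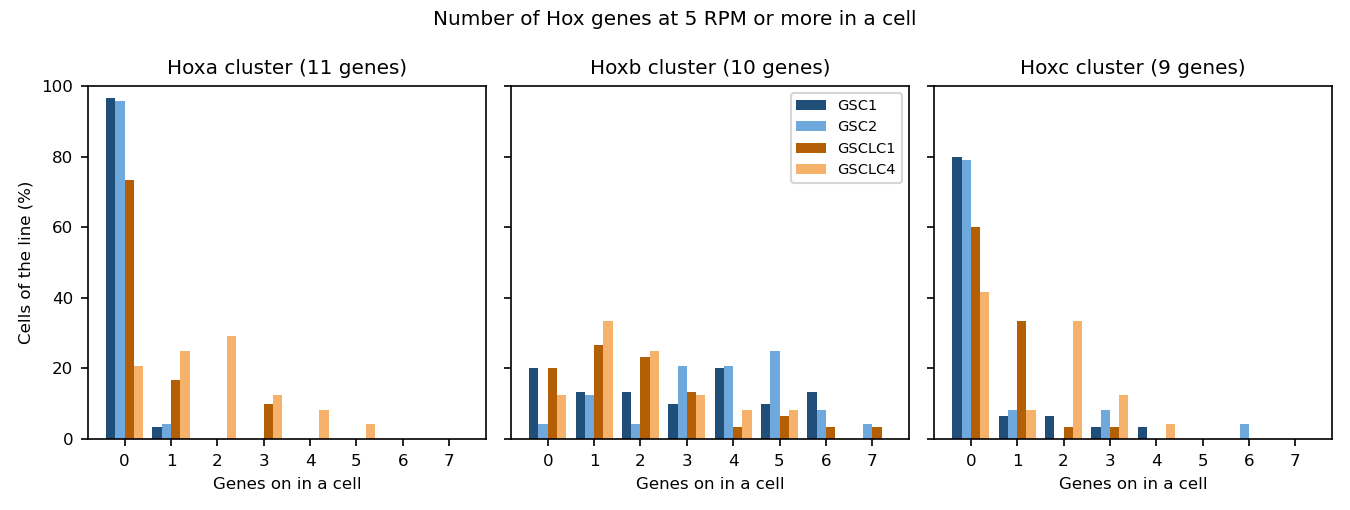
Bars give the share of cells of each line (in %) by the number of genes on in a cell, for clusters a, b and c. In cluster a nearly all GSC cells stand at 0 genes while GSCLC4 cells reach 5, in cluster b the GSC lines reach further to the right than GSCLC4, and in cluster c 1 GSC2 cell stands alone at 6 genes.

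Hoxb7, a trunk gene, was on in more cells than any other Hox gene in each of the 4 lines. Its line means were 36.3 RPM (GSC1), 42.9 RPM (GSC2), 43.5 RPM (GSCLC1) and 46.1 RPM (GSCLC4). In this order 16 of 30, 17 of 24, 17 of 30 and 18 of 24 cells had it on. The medians over cells were 7.05, 11.8, 17.9 and 39.6 RPM, all from a lowest value of 0, and the highest cells lay between 168.6 and 183.3 RPM. The line means lay close together and the cells of the 4 lines overlapped over the whole range, while the median was lowest in GSC1 and highest in GSCLC4.

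Hoxb2, a hindbrain gene, differed most among the Hoxb genes. Its line means were 39.1 RPM (GSC1), 44.3 RPM (GSC2), 13.2 RPM (GSCLC1) and 8.34 RPM (GSCLC4). The gene was on in 15 of 30 and 14 of 24 GSC cells and in 7 of 30 and 3 of 24 GSCLC cells. The medians over all cells were 4.62 and 26.4 RPM in the GSC lines and 0 in both GSCLC lines. Among cells that were on, medians lay closer together, at 50.1 and 52.4 RPM in GSC1 and GSC2 against 39.9 and 33 RPM in GSCLC1 and GSCLC4. In GSCLC4, 1 cell at 125.6 RPM made up 62.7% of the line's sum.

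Hoxb3, Hoxb5, Hoxb8 and Hoxb9 had the same order of types. Hoxb3, a hindbrain and neck gene, averaged 13.0 and 12.1 RPM in the GSC lines, in the order used above, against 5.47 and 3.26 RPM in the GSCLC lines. Hoxb5 averaged 12.4 and 18.9 RPM against 4.73 and 4.06 RPM, and 1 cell of 118.3 RPM made up 83.5% of the GSCLC1 sum. Hoxb8, known for its part in blood cell progenitors, averaged 13.2 and 13.7 RPM against 8.31 and 3.08 RPM. Hoxb9, a thoracic gene, averaged 14 and 19.8 RPM against 13.7 and 5.58 RPM, so GSC1 and GSCLC1 were next to each other.

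The other Hoxb genes did not separate the types. Hoxb13, the tail-most gene and a marker of the prostate, averaged 14.7 RPM in GSC1 and 7.57 RPM in GSC2, against 10.1 RPM in GSCLC1 and 7.46 RPM in GSCLC4, and was on in 5 to 7 cells of each line. In GSC1 1 cell of 228.1 RPM made up 51.8% of its sum. Hoxb6 averaged 10.3 RPM in GSC2, 2.47 and 2.56 RPM in GSC1 and GSCLC1, and 0.383 RPM in GSCLC4. Hoxb1, the head-most gene of the cluster, averaged 6.90 RPM in GSC2 and 2.42 RPM in GSCLC4, but 0.106 RPM in GSC1 and 0.138 RPM in GSCLC1. Hoxb4 was on in 1 or 2 cells of each line. Of the GSC1 cells, 13 had serial numbers under 129 and 17 of 129 or more. In these sets of serial numbers, in that order, Hoxb2 averaged 47.3 and 32.9 RPM, Hoxb8 18.8 and 8.94 RPM and Hoxb13 23.6 and 7.86 RPM. Hoxb7 averaged 39.9 and 33.4 RPM and was on in 69.2% and 41.2% of the cells. In each set 9 Hox genes were on. For the later set this included Hoxc8, on in 2 of 17 cells, 1 of them the low-detection cell.

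A list drawn up for embryonic mesoderm and kidney had the same order of types as cluster b. Whether its genes mark those tissues in these cultures was not tested. Summed over 6 markers of embryonic mesoderm and kidney, among them T, the mesoderm factor brachyury, the line means were 189.5 and 185.96 RPM for GSC1 and GSC2, against 94.7 and 40.3 RPM for GSCLC1 and GSCLC4. The sums ran from 0 to 582.9, 0.171 to 626.1, 0 to 598.7 and 0 to 300.3 RPM over the cells of these lines. Of the 6 markers, 3, 3, 2 and 1 were on in the respective lines, Lhx1 in all and T in all but GSCLC4. Pax2 averaged under 0.5 RPM in all lines, and Tbx6 and Osr1 in all but GSC1. The sum therefore rested on few members and does not identify those tissues. Depth was lower in both GSCLC lines too. With every cell thinned to the shallowest depth, Hoxb2 was on in 50.0% and 58.3% of GSC cells and 26.7% and 12.5% of GSCLC cells. The numbers of Hox genes on in the 4 lines were again 10, 11, 13 and 19. RPM is already scaled to depth, so this thinning could move these values little. Loss of RNA before sequencing was not tested. The part of the mesoderm and kidney markers in the Hoxb values was not tested.

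Cluster c was used by a minority of GSC cells and of GSCLC1 cells. At least 1 Hoxc gene was on in 6 of 30 cells of GSC1, 5 of 24 of GSC2, 12 of 30 of GSCLC1 and 14 of 24 of GSCLC4. Hoxc9, a trunk and motor neuron gene, averaged 3.15 and 5.91 RPM in the GSC lines, and 10.1 and 12.6 RPM in the GSCLC lines. In the same order 2 of 30, 3 of 24, 7 of 30 and 9 of 24 cells had it on, and 1 cell of 83.0 RPM made up 87.7% of the GSC1 sum. Hoxc13, a regulator of hair and nail, averaged 8.20 and 6.49 RPM in the GSC lines, and 5.85 and 5.69 RPM in the GSCLC lines. Without the low-detection cell, which held 130.9 RPM of it, the GSC1 mean was 3.97 RPM and the lowest of the 4.

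In the GSC lines the level of cluster c came from a handful of cells. In GSC2, 3 of 24 cells, of serial numbers 37, 39 and 41, held 96.9% of the line's Hoxc RPM. The cell of serial number 39 had 6 Hoxc genes on. Hoxc4 stood at 8.70 RPM, Hoxc5 at 10.3 RPM and Hoxc8 at 18 RPM. Hoxc9 stood at 75.2 RPM, Hoxc10 at 82.7 RPM and Hoxc12 at 391.2 RPM. That value of Hoxc12 was the highest of this gene in any cell. Cell 39 was also the GSC2 cell with Hoxa13 on. Its neighbours in the numbering had 3 Hoxc genes on each, Hoxc9, Hoxc11 and Hoxc13 in cell 37 and Hoxc9, Hoxc10 and Hoxc13 in cell 41. The labels do not say what the order of serial numbers stands for, such as a position on a plate. Dazl lay between 3010 and 3832 RPM in these 3 cells and the fibroblast marker sum between 316.0 and 463.0 RPM, both within the range of the line.

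GSC1 held a similar cell. It had Hoxc8 at 26.9 RPM, Hoxc9 at 11.3 RPM, Hoxc10 at 57.0 RPM and Hoxc12 at 158.9 RPM, with 3425 RPM of Dazl. The low-detection cell was different. Of all Hox genes it had Hoxc8 on, at 168.2 RPM, and Hoxc13, at 130.9 RPM, together with its high fibroblast marker sum, and Dazl at 517 RPM was the lowest of all cells. Without it, Hoxc8 averaged 1.81 RPM in GSC1 where it had averaged 7.36 RPM. The part of fibroblast RNA in these Hoxc values was not tested.

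In GSCLC4 cluster c was spread over more cells. Hoxc10 was on in 4 of 24 cells, Hoxc11 in 3 and Hoxc12 in 4, with means of 7.34, 3.41 and 5.31 RPM, and the highest Hoxc cell held 15.1% of the line's sum. Hoxc12 was at 0 RPM in every GSCLC1 cell. Clusters c and a were in part on in the same cells. A Hoxa gene was on in 19 and a Hoxc gene in 14 of the 24 GSCLC4 cells. Some overlap therefore had to arise there, and a link between the clusters was not tested. In GSCLC4, 13 cells had both, 6 cluster a alone, 1 cluster c alone and 4 neither. In GSCLC1 the counts were 5, 3, 7 and 15. Hoxc4, Hoxc5 and Hoxc6 were on in no more than 2 cells of any line.

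Cluster d was almost silent. Hoxd8, the only gene of it on in a line, averaged 3.78 RPM in GSCLC4, where 6 of 24 cells were on, between 6.71 and 33.7 RPM. Elsewhere it averaged 0.0844 RPM (GSC1), 0.356 RPM (GSC2) and 0.0908 RPM (GSCLC1), with 1 GSC2 cell on. Hoxd11 and Hoxd13, which shape the limb, were on in 1 GSC1 cell each, at 25.0 and 15 RPM. No cell had more than 1 Hoxd gene on.

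The types were compared over lines, 2 GSC against 2 GSCLC, by limma on log2(mean RPM + 1). A line mean of 5 RPM or more had to be reached in 2 or more lines, which was the case for 14 Hox genes, 3 of cluster a, 7 of b and 4 of c. None of the 14 passed an adjusted p of 0.05, and 0.0760% of the 10526 genes tested did (8 genes). At an unadjusted p under 0.05 there were 5 of the 14, against 929 of the 10526. The 5 were Hoxa3, Hoxa10 and Hoxa13, with higher GSCLC means, and Hoxb2 and Hoxb5, with lower ones. Genes that passed only through 1 type, as the Hoxa genes did, had to differ to be tested at all. In 12 of the 14 the line means of the types did not overlap, with both GSCLC means above both GSC means in 5 and below in 7; this was so for 39.3% of all genes tested. Of the 7, Hoxc13 overlapped without the low-detection cell. The median log2 difference was -0.28 over the 14 and 0.04 over all genes tested.

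Hoxa10 came nearest to the threshold, with a log2 difference of 4.69 ± 0.81 (SE) between GSCLC and GSC lines and an adjusted p of 0.0669. With 1 line left out its adjusted p was 0.049 (without GSC2), 0.101 (without GSC1), 0.286 (without GSCLC1) and 0.715 (without GSCLC4). Hoxa13 followed with 4.40 ± 0.85 and an adjusted p of 0.0980, and Hoxa3 with 3.11 ± 0.87 and an adjusted p of 0.379. The GSC means of these genes were at or near 0, so the sizes rest on the pseudocount. With 10 and 0.1 RPM in place of 1 RPM the difference was 1.83 and 7.90 for Hoxa10, 1.78 and 6.66 for Hoxa13 and 1.08 and 5.01 for Hoxa3. All 3 passed the filter through the GSCLC lines alone, which fixed the direction.

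In cluster b the differences were smaller and of the other sign. Hoxb2 differed by -1.89 ± 0.45 on the log2 scale, with an adjusted p of 0.262, and Hoxb5 by -1.60 ± 0.63, with an adjusted p of 0.511. Hoxb3, Hoxb8 and Hoxb9 differed by -1.37, -1.23 and -0.84, with adjusted p-values of 0.581, 0.633 and 0.732. All 5 had both GSCLC means below both GSC means. Hoxb7 differed by 0.18, with a 95% interval from -0.55 to 0.90, which leaves out a 2-fold change in either direction on this scale. Hoxb13 differed by -0.26, and its sign turned when GSC1 was left out.

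Of cluster c, Hoxc9 differed by 1.20, with an interval from -0.27 to 2.66 and an adjusted p of 0.650. Hoxc12 differed by -2.06, with an adjusted p of 0.585, but its GSC means rested on 1 cell each, with 98.97% of the sum in GSC1 and 100% in GSC2. Hoxc13 differed by -0.29 and Hoxc10 by -0.03, with intervals from -1.77 to 1.18 and from -1.97 to 1.91. When cells were averaged after taking logs, the differences of Hoxc12, Hoxc13 and Hoxc10 had the opposite sign.

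**Figure D5:**
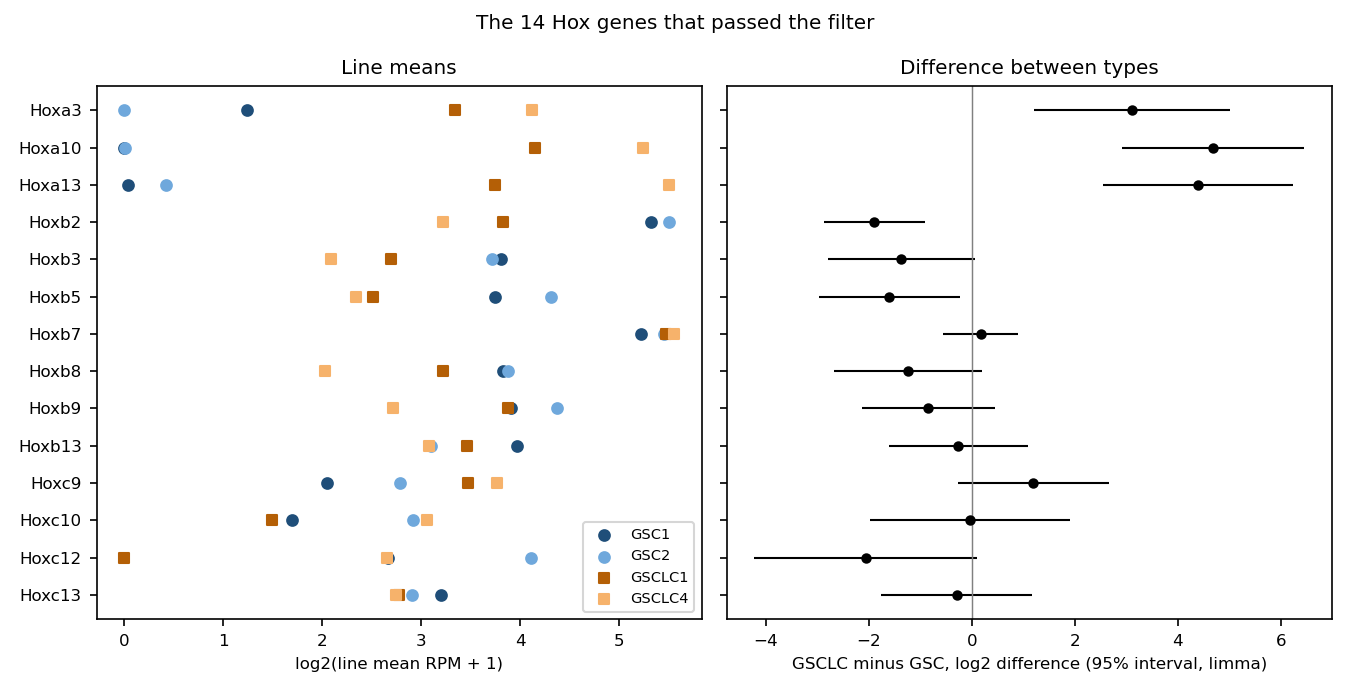
The left panel gives the 4 line means of each of the 14 tested Hox genes as log2(mean RPM + 1), GSC lines as circles and GSCLC lines as squares; the right panel gives the difference of GSCLC minus GSC lines with its 95% interval from limma. Squares lie to the right of circles for the 3 Hoxa genes and to the left for Hoxb2, Hoxb3, Hoxb5, Hoxb8 and Hoxb9, and the 4 points of Hoxb7 nearly coincide.

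Lines of 1 type were compared by size alone, since each is 1 line. Of the 15 Hox genes with at least 5 RPM in either GSCLC line, Hoxc12 was among those at least 4-fold higher in GSCLC4 on the log2(mean RPM + 1) scale, beside 2.85% of 11055 genes. None was 4-fold higher in GSCLC1, beside 1.48%. Of 14 Hox genes in the GSC lines, Hoxb1 was 4-fold higher in GSC2, beside 1.98% of 10909 genes, and Hoxc8 in GSC1, beside 3.07%. Without the low-detection cell the count for GSC1 was 0.

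Genes that work with or on the Hox clusters did not pass the test. No member of the TALE cofactor list (6 tested), the list of Cdx and other Hox regulators (5), Polycomb (32), trithorax (16) or retinoic acid genes (11) had an adjusted p under 0.05 by limma, and 0, 2, 5, 1 and 2 of them had an unadjusted p under 0.05. Of the Polycomb genes 16 had a positive and 16 a negative difference. Cdx1 and Cdx2, activators of trunk Hox genes in the embryo, were at 0 RPM in every cell. Egr2, which activates Hoxb2 in the hindbrain, averaged 151.5 and 157.1 RPM in the GSC lines, against 98.9 and 68.4 RPM in the GSCLC lines (log2 difference -0.90 ± 0.25, adjusted p = 0.383). Cyp26a1, which degrades retinoic acid, averaged 10.6 and 6.94 RPM against 0 and 0.808 RPM (-2.83 ± 0.92, adjusted p = 0.437). Aldh1a2, which makes it, averaged 2.27 and 25.4 RPM against 26.3 and 56.3 RPM (2.09 ± 0.79, adjusted p = 0.503).

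Among cofactors and chromatin proteins, Pbx3 averaged 1.59 and 2.13 RPM in the GSC lines and 10.3 and 5.15 RPM in the GSCLC lines (log2 difference 1.55 ± 0.82, adjusted p = 0.625). Meis1 and Meis2 averaged no more than 1.47 RPM in any line. The PRC2 partner Epop, listed as E130012A19Rik, averaged 24.9 and 34.6 RPM in the GSC lines against 62.6 and 60.5 RPM (1.04 ± 0.34, adjusted p = 0.440).

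Of 19 tested genes that flank the clusters none passed either, and 2 had an unadjusted p under 0.05. Skap2, the gene on the head side of cluster a, averaged 43.5 and 84.3 RPM in the GSC lines and 76.02 and 204.1 RPM in the GSCLC lines, so that GSC2 lay above GSCLC1 (log2 difference 1.03 ± 0.42, adjusted p = 0.541). Among RNAs within the clusters, Gm15051 averaged 1.08 and 1.42 RPM against 5.39 and 9.94 RPM (1.90 ± 0.85, adjusted p = 0.558). Gm53, between Hoxb13 and Hoxb9, was on in 6 of 30 GSCLC1 cells, with a mean of 7.49 RPM, and stayed below 5 RPM in all cells of the other lines.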

How the data were processed

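Single cells of 4 mouse culture lines were profiled by SC3-seq. The authors deposited 1 table of expression signal, in RPM scaled over the gene rows, with 92 spike-in RNAs on top that were left out here. The submitters' processing notes name TopHat 1.4.1, cutadapt 1.3, Cufflinks 2.2.0 and the build mm10. The sources used here do not give how strand and reads with several matches were counted. The value of 1 read in each cell gave its depth. Between 85.6% and 92.4% of a cell's values, and 97.7% of the 740 Hox values above 0, were whole reads within 0.05 read, so no count model was fitted. Shares of cells have exact Clopper-Pearson 95% intervals for counting error only.

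The 4 lines, not their cells, were the units of the only test: limma 3.58.1 in R 4.3.3 on log2(line mean RPM + 1) with a variance trend, Benjamini-Hochberg adjustment over 10526 genes and a threshold of 0.05. The pseudocount of 1 RPM understates changes of low genes. The p-values measure the spread between these lines, with that of each gene drawn towards the spread of genes of like level. The fit was tested on simulated data. Reads at 3′ ends do not allow levels of different genes to be ranked, so counts of cells at 5 RPM compare genes by that rule alone. Values over cells were described for members on in at least 50% of the cells of a line or set apart between types by a log2 difference of at least 1, and up to 4 members of each related list were eligible by size. Alternatives changed the pseudocount, filter, summary over cells, scaling, trend, thresholds, depth and the cells and lines used. The members and lists were chosen with earlier results of these data known. Single values of some genes are not reported here and those genes are left out of the plots by gene, while counts over clusters and lists include them.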

Additional observations from a re-analysis of the deposited data

How the results depend on the processing

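The number of genes past the threshold among all tested was 8, and 3 with a pseudocount of 0.1 RPM, 14 with 10 RPM, 2 with a filter at 1 RPM, 23 at 20 RPM, 0 without filter, 22 with cells averaged after taking logs, 3 with median-ratio scaling and 0 without the variance trend. With the GSC1 cells of serial number under 129 it was 4 and with those of 129 or more 2, and leaving out 1 line gave 1 to 22. The number of Hox genes among them was 0 under every alternative but 1, as leaving out 1 line gave 0 to 1, the 1 being Hoxa10 without GSC2. Where a line is left out, its lone partner is assumed to vary like the other type. Hoxa3, Hoxa10, Hoxa13, Hoxb2, Hoxb3, Hoxb5, Hoxb7, Hoxb8, Hoxb9 and Hoxc9 kept their sign under every alternative that tested them. With the filter at 20 RPM only Hoxb2 and Hoxb7 of these were tested. Hoxa3, Hoxa10 and Hoxa13 passed the 5 RPM filter through the GSCLC lines alone, which fixed their sign in advance under that filter. With a pseudocount of 10 RPM the log2 difference of Hoxc10 was 0.0079. With cells averaged after taking logs, it was 0.15 for Hoxc10, 0.090 for Hoxb13, 0.11 for Hoxc12 and 0.28 for Hoxc13, and the median over the tested Hox genes was 0.13. Without the GSC1 cell of fewest detected genes Hoxc13 differed by 0.15. With GSC1 cells under 129 Hoxc10 differed by 0.44, and with those of 129 or more Hoxb13 by 0.15. With 1 line left out, Hoxc10 ran from -0.81 to 0.75 and Hoxb13 from -0.70 to 0.17. In GSCLC4, 11 Hox genes were on at 20 RPM and 9 where 20% of cells were required, and in GSCLC1 10 and 8, against 9 and 8 in GSC1 and 10 and 9 in GSC2. Hox genes 4-fold higher in GSCLC4 than in GSCLC1 were 0 with a pseudocount of 10 RPM and 1 after averaging logs. Those 4-fold higher in GSC2 than in GSC1 were 2 at 0.1 RPM, 0 at 10 RPM and 0 after averaging logs, and those in GSC1 were 0 at 10 RPM, 0 after averaging logs and 0 without that cell. The causes were not tested. With 2 lines a type and 24 to 30 cells a line, a gene on in few cells has an uncertain mean. A gene absent from 24 cells may be on in up to 12.5% by a limit of 3 cells, or 14.2% by the exact interval. No paired analysis was possible because the lines share no replicate numbers.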
